A study of Mus musculus with 8 samples.

Results

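Uteri in metestrus were set against uteri in proestrus, 2 stages of the mouse estrous cycle with 2 RNA-seq libraries each. These 4 libraries were chosen by the stage in their labels, out of 8 libraries that also cover estrus and diestrus. The mice were female ICR animals, an outbred laboratory stock, 6 to 8 weeks old, and no treatment or engineered allele is named in the labels. Their stage was read from the cells in a vaginal smear, so a stage covers many hours and is judged from the vagina and not from the uterus. RNA of the whole uterus was enriched for mRNA and made into TruSeq stranded libraries. The labels do not say whether the 2 libraries of a stage came from single animals or pools, so the p-values measure the spread between these libraries, which may be partly technical. By its title, the series asks about Fam3d and its control by estrogen across the cycle. Proestrus is the stage before ovulation and metestrus follows estrus.

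In cycling mice, estrogen from growing follicles peaks around proestrus, ovulation follows, and the corpora lutea that form after it make progesterone in metestrus and diestrus. In the uterus, estrogen is known for fluid secretion, growth of the luminal epithelium and secretion of antimicrobial proteins. Progesterone is known for opposing estrogen in the epithelium and for signals sent from the epithelium to the stroma, of which Indian hedgehog is the best known.

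The deposited counts summed to 21216429 and 21645295 in metestrus and to 21743652 and 21066223 in proestrus. Levels are CPM, counts scaled to the size of the library, with library 1 given before library 2, and changes are log2 fold changes ± SE of the edgeR quasi-likelihood fit to all 8 libraries, metestrus over proestrus. Of 52308 genes, 18114 had enough counts to be tested, and each p is adjusted over all of them with a threshold of 0.05. The fit called 3067 genes, 16.9% of those tested, of which 1210 (6.68%) were higher and 1857 (10.3%) lower in metestrus. Among them, 191 genes were over 4-fold higher and 475 over 4-fold lower, while the median of all genes tested was 0.00675 on the log2 scale. The metestrus libraries lay over 2-fold apart in 293 genes and the proestrus libraries in 732. Both metestrus libraries lay above both proestrus libraries in 6332 of the 18114 genes tested, and below both in 6259. The stages overlapped in 0 of the called genes, so a lack of overlap in a called gene adds nothing to its call. Of the 1857 genes lower in metestrus, 88 stood over 2-fold higher in proestrus library 1 than in library 2, and 2 the other way round. All markers used to check the tissue were found: Esr1 and Pgr, the receptors of estrogen and progesterone, Hoxa10 and Hoxa11 of the reproductive tract, Krt8 and Epcam of epithelium, Acta2 and Myh11 of smooth muscle, Dcn of stroma and Pecam1 of vessels each had at least 42.6 CPM in all 4 libraries.

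How many genes passed the test depended on single libraries. Higher and lower calls numbered 2 and 14 without metestrus library 2, 89 and 223 without metestrus library 1, 83 and 393 without proestrus library 1, and 439 and 1097 without proestrus library 2. In what follows, a count given without either library of a stage is the count found each time 1 of the 2 was left out. Calls numbered 715 and 1169 without estrus library 1 and 676 and 1224 without estrus library 2, which enter the fit only through the shared spread. Without diestrus library 1 they rose to 2343 and 2658, and without diestrus library 2 to 2321 and 2657. Of the 192 called genes named here, the closing section included, 12 passed under every alternative run: Lrmp, Ass1, Bpifb5, Serpinb5, B3galt5, Krtcap3, Rab27b, Ugt1a7c, Sfn, Slc40a1, Elf3 and Ighv8-8. The other 180 calls ended under at least 1 alternative. Of the 34 named genes that did not pass, 18 passed under at least 1 alternative. Beside the lists stand the libraries whose removal moved a count by over 1.5 times.

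**Figure D1:**
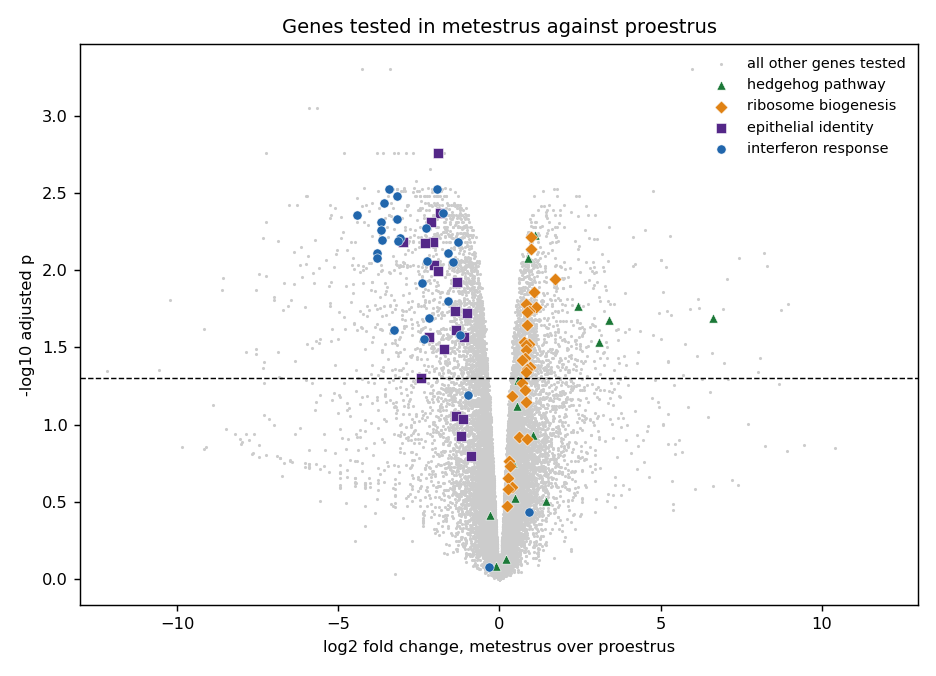
Each point is 1 of the 18114 genes tested, with its log2 fold change (metestrus over proestrus) on the x axis and -log10 of its adjusted p on the y axis; the dashed line is the threshold of 0.05. Coloured symbols mark the tested members of 4 lists: the interferon response and epithelial identity lists lie to the left (25 of 28 and 16 of 20 called lower), the hedgehog and ribosome biogenesis lists to the right (6 of 15 and 18 of 30 called higher).

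The most significant differences were in genes of the epithelium and of metabolism. Lrmp, a membrane protein of the endoplasmic reticulum, had 6.16 and 7.79 CPM in metestrus, against 133 and 133 CPM in proestrus (-4.25 ± 0.15, adjusted p = 0.000503). Ass1, which makes argininosuccinate on the way to arginine, had 15.6 and 14.7 CPM in metestrus, against 164 and 154 CPM in proestrus (-3.39 ± 0.13). Bpifb5, a secreted protein of the family of lipid-binding defence proteins, went the other way with 110.0 and 135 CPM in metestrus, against 1.79 and 2.08 CPM in proestrus (5.97 ± 0.24, adjusted p = 0.000503). In each of the 3 genes the 2 libraries of a stage lay close together and the stages were far apart. Serpinb5 (maspin), a member of the serpin family made by epithelium, had 0.536 and 0.599 CPM in metestrus, against 33.4 and 24 CPM in proestrus (-5.65 ± 0.26). The glycosyltransferase B3galt5 had 0.536 and 0.77 CPM in metestrus, against 43.7 and 34.8 CPM in proestrus (-5.90 ± 0.28). The 10 genes with the smallest p also included Sfn, Ugt1a7c, Rab27b and Krtcap3, all lower in metestrus. In whole uterus, fewer cells of a type and less of a transcript per cell cannot be told apart, and that holds for every result here.

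By size, the 15 largest rises included several genes that were nearly silent in proestrus. Cxcl15 (lungkine), a chemokine known from uterine glands, had 36.9 and 43.5 CPM in metestrus, against 0.0513 and 0.0993 CPM in proestrus, a ratio of 532 (95% interval 182 to 2580.0) from 3 counts in proestrus. Wif1, a secreted Wnt inhibitor, had 42 and 27.3 CPM in metestrus, against 0.154 and 0 CPM in proestrus, a ratio of 456 (95% interval 156 to 2210.0), again from 3 counts. Those intervals are exact 95% ones and cover counting error only. Apln, the peptide ligand of the apelin receptor on vessels, had 32.2 and 42.7 CPM in metestrus, against 0.974 and 1.34 CPM in proestrus (5.01 ± 1.10, adjusted p = 0.0277). All 3 genes were at or below 1.34 CPM in proestrus. Krt23, an acidic keratin, had 29.5 and 32 CPM in metestrus, against 0.308 and 0.546 CPM in proestrus (6.15 ± 1.09). Gstm7, a glutathione transferase, had 172 and 234 CPM in metestrus, against 5.23 and 5.66 CPM in proestrus (5.22 ± 1.29). In these 5 genes both metestrus libraries lay far above both proestrus libraries. Kcna2, a potassium channel subunit, rose by 5.17 ± 0.78 and Ndp, the secreted Norrin that acts through a Wnt receptor, by 4.26 ± 1.07 on the log2 scale. Cpne4, a calcium-dependent membrane-binding copine, rose by 3.93 ± 0.99. Of 2 immunoglobulin variable genes among the 15, Ighv8-8 had 13 and 9.37 CPM in metestrus, against 0.308 and 0.496 CPM in proestrus. Igkv4-78 had 2.32 and 13.8 CPM in metestrus, against 0.0513 and 0 CPM in proestrus. Such genes are near copies of each other, so their counts are uncertain.

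The 15 largest falls included genes with very uneven proestrus libraries. Krt6b, a stress keratin of stratified epithelium, had no count in metestrus, against 51 and 4.71 CPM in proestrus, which makes it at least 419-fold lower when 3 counts over the 2 metestrus libraries are taken as the floor. Chil1, a secreted chitinase-like protein, had 0.446 and 0.0856 CPM in metestrus, against 574 and 68.7 CPM in proestrus (-10.22 ± 1.82, adjusted p = 0.0155). Arg1, which splits arginine, had 5.22 and 3.85 CPM in metestrus, against 1087 and 273 CPM in proestrus (-7.23 ± 0.82, adjusted p = 0.00489). Proestrus library 1 stood 4 to 11 times above library 2 in these 3 genes, and both lay far above metestrus. Rnf186, an E3 ubiquitin ligase, was more even with 0.357 and 0.471 CPM in metestrus, against 78.4 and 48.5 CPM in proestrus (-7.24 ± 0.46, adjusted p = 0.00176). The hair-type keratin Krt84 had 0.179 and 0.299 CPM in metestrus, against 71.4 and 43.1 CPM in proestrus (-7.86 ± 1.86). The water channel Aqp4, Apobec2, Trim15 and 3 small proline-rich genes (Sprr2b, Sprr2a3 and Sprr2a2) were also among the 15. The Sprr2 genes are near copies of each other, so how their reads were split is uncertain. Mgat4c, Cyp3a13 and Saa3 had 3, 3 and 1 counts in metestrus, against 494, 437 and 205 counts in proestrus. Alb, the liver's albumin, had 1 count in metestrus and 82.7 and 0.943 CPM in proestrus, and did not pass without proestrus library 1.

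Fam3d, the gene in the series title, encodes a secreted cytokine-like protein known from the gut, and it carries the older symbol Oit1 in the annotation (GRCm38, chr14:8348937-8378754, minus strand). It had 7.59 and 7.91 CPM in metestrus, against 88.1 and 74.3 CPM in proestrus, 10.5-fold lower in metestrus (-3.39 ± 0.53, adjusted p = 0.0105). The 2 libraries of each stage lay close together. Over the alternatives the adjusted p ranged from 4.88e-11 to 0.0972. It was above the threshold without proestrus library 1, without either metestrus library and with a minimum fold of 2. Fam3b (pancreatic-derived factor) had 0.491 and 0.513 CPM in metestrus, against 42.3 and 21.2 CPM in proestrus (-5.97 ± 0.52, adjusted p = 0.00331). Fam3c, a secreted inducer of epithelial plasticity, had 64.5 and 58.9 CPM in metestrus, against 141 and 124 CPM in proestrus (-1.10 ± 0.13, adjusted p = 0.00572). Fam3a had 34.9 and 30.2 CPM in metestrus, against 58.1 and 46.2 CPM in proestrus and did not pass (-0.68 ± 0.23, adjusted p = 0.0925). Thus 3 of the 4 FAM3 genes were lower in metestrus, with a median of -2.24 over the 4. The list of epithelial markers moved in the same direction (16 of 20 lower, 2008 and 1914 CPM in metestrus, against 8201 and 6746 CPM in proestrus), and its part was not tested. Most of the 3 FAM3 calls were lost without metestrus library 1, and all of them without metestrus library 2.

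Of 9 receptors and binding proteins of steroid hormones, 1 passed the test (11.1%, against 16.9% of all genes tested), and the median was 0.18. Esr1, which encodes estrogen receptor alpha, had 447 and 464 CPM in metestrus, against 443 and 457 CPM in proestrus (0.02 ± 0.17, adjusted p = 0.951). Pgr, itself an estrogen target, had 480.5 and 478 CPM in metestrus, against 385 and 337 CPM in proestrus (0.41 ± 0.14, adjusted p = 0.0936). The median of the receptors was thus close to that of all genes tested. The count became 2 without either diestrus library and 0 without proestrus library 1 or either metestrus library. DESeq2 and the fit of only the 4 libraries also called 2.

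Of 32 genes known to be induced by estrogen in the rodent uterus, 9 were lower and 0 higher in metestrus, and the median was -2.30. DESeq2 called 14 lower, the fit with no filter on low counts 15 and the fit of only the 4 libraries 18. Lcn2, a secreted protein that binds bacterial siderophores, had 99.3 and 63 CPM in metestrus, against 7176 and 3133 CPM in proestrus (-5.99 ± 0.51, adjusted p = 0.00331). Muc1, the transmembrane mucin of the luminal surface, had 60.4 and 52.2 CPM in metestrus, against 374 and 439 CPM in proestrus (-2.85 ± 0.43). In both the stages lay far apart. Padi1, Padi2 and Padi4, which convert arginine residues of proteins to citrulline, had log2 fold changes of -3.80 ± 0.71, -2.94 ± 0.40 and -2.45 ± 0.25. Proestrus library 1 was above library 2 in most of the large estrogen targets. Complement C3, a secreted marker of estrogen action, had 324 and 307 CPM in metestrus, against 7538 and 3102 CPM in proestrus and did not pass (adjusted p = 0.0533). Ltf (lactotransferrin), which binds iron, had 439 and 391 CPM in metestrus, against 5231 and 2557 CPM in proestrus and did not pass (adjusted p = 0.0761). C3 and Ltf passed with DESeq2, with no filter on low counts, in the fit of only the 4 libraries and without either diestrus library. The 9 calls became 16 without either diestrus library, 4 without proestrus library 1, 3 without metestrus library 1 and 0 without metestrus library 2. Without either diestrus library 1 member was called higher, and in the fit of only the 4 libraries 4 were. The epithelial list moved with the lower genes (16 of 20 lower), and its part was not tested. The list was written with earlier results of these data in view and is not independent evidence of a direction.

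Genes known to respond to progesterone gave 6 higher and 0 lower of 24 tested, with a median of 0.43. The 6 were Ihh, Ptch1, Gli1, Hoxa10, Hoxa11 and Lrp2. Ihh, Ptch1 and Gli1 are also counted in the hedgehog list below, so the 2 lists are not separate results. Lrp2 (megalin), an endocytic receptor, had 10.2 and 26.1 CPM in metestrus, against 0.718 and 0.596 CPM in proestrus (4.78 ± 1.03, adjusted p = 0.0261). Hoxa10, a transcription factor that the uterus needs for implantation, had 179.9 and 177 CPM in metestrus, against 78.9 and 113 CPM in proestrus (0.90 ± 0.17, adjusted p = 0.0194). Its neighbour Hoxa11 had 76.4 and 90.8 CPM in metestrus, against 42.6 and 57.1 CPM in proestrus (0.75 ± 0.17). In both Hox genes the stages did not overlap and differed by less than 2-fold. Msx1, a homeobox factor of uterine epithelium, had 222 and 197 CPM in metestrus, against 50.9 and 44.3 CPM in proestrus and did not pass (adjusted p = 0.0564). The immunophilin Fkbp4, a cochaperone of Pgr, had 786 and 732 CPM in metestrus, against 435 and 391 CPM in proestrus and did not pass (adjusted p = 0.078). Both Msx1 and Fkbp4 passed with DESeq2 and without either diestrus library. The 6 calls became 11 without diestrus library 2, 10 without diestrus library 1, 2 without proestrus library 2 and 0 without proestrus library 1 or either metestrus library. Without either diestrus library, and in the fit of only the 4 libraries, 2 members were called lower.

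Most markers of epithelial identity were lower. Of 20 genes, 16 were lower in metestrus and 0 higher, with a median of -1.78. Epcam, the pan-epithelial adhesion molecule, had 165 and 169 CPM in metestrus, against 663 and 533 CPM in proestrus (-1.84 ± 0.19, adjusted p = 0.00427). Cdh1 (E-cadherin) had 214 and 233 CPM in metestrus, against 655 and 497 CPM in proestrus (-1.36 ± 0.26). The keratin Krt8 of simple epithelium had 319.9 and 291 CPM in metestrus, against 1353 and 1143 CPM in proestrus (-2.03 ± 0.30). In all 3 the stages were separated by a gap wider than either stage. The list summed to 2008 and 1914 CPM in metestrus, against 8201 and 6746 CPM in proestrus, with no member at 0 in any library. The 16 calls became 6 without proestrus library 1, 2 without metestrus library 1 and 0 without metestrus library 2. In estrus these genes still stood near their proestrus level and in diestrus beyond their metestrus level, with median positions of 0.2 and 1.21 on a log2(CPM + 0.5) scale on which proestrus is 0 and metestrus 1.

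Among genes of the luminal surface and of stratification, 15 of 32 tested were lower and 2 higher, with a median of -2.06, and 6 further members had too few counts. Elf3, an epithelial transcription factor, had 139 and 94.8 CPM in metestrus, against 1018 and 814 CPM in proestrus (-2.97 ± 0.22, adjusted p = 0.00295). Sfn (stratifin, 14-3-3 sigma) had 22.9 and 15 CPM in metestrus, against 254 and 210.0 CPM in proestrus (-3.61 ± 0.22, adjusted p = 0.00176). Sprr1a, a precursor of the cornified envelope, had 1.16 and 1.54 CPM in metestrus, against 142 and 106 CPM in proestrus (-6.52 ± 0.62, adjusted p = 0.0038). Each of these falls was larger than the median of the epithelial identity list. Trp63, the transcription factor of stratified epithelium, and its keratin partners Krt5 and Krt14 were lower too, at low levels. Krt5 had 0.134 and 0.128 CPM in metestrus, against 1.28 and 1.84 CPM in proestrus. The 2 members that rose were Krt23, given above, and Krt4, with 0.759 and 0.984 CPM in metestrus, against 0.205 and 0.0496 CPM in proestrus. The 15 lower calls became 9 without proestrus library 2, 5 without proestrus library 1, 4 without metestrus library 1 and 3 without metestrus library 2. The 2 higher calls became 1 without either estrus library and 0 without either proestrus library or either metestrus library.

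Growth factor receptors and channels were called in both directions. The receptor tyrosine kinases Erbb3 and Erbb2 had log2 fold changes of -2.16 ± 0.26 and -1.50 ± 0.19 and the ligand Btc (betacellulin) -2.06 ± 0.28. Egfr, the founding receptor of the family, was higher with 60 and 65.1 CPM in metestrus, against 45.5 and 37.9 CPM in proestrus (0.59 ± 0.13, adjusted p = 0.0282). Of 24 ion and water transport genes tested, 7 were lower and 2 higher. Cftr, the chloride channel of uterine fluid secretion, had 23.4 and 23.2 CPM in metestrus, against 127 and 108 CPM in proestrus (-2.33 ± 0.43, adjusted p = 0.0168). Clca1, a secreted regulator of chloride channels, had 64.1 and 107 CPM in metestrus, against 3651 and 1949.7 CPM in proestrus (-5.04 ± 0.68, adjusted p = 0.00745). Ano1, a calcium-activated chloride channel of muscle and epithelium, was higher instead, with 92.2 and 97.2 CPM in metestrus, against 21.4 and 31.1 CPM in proestrus (1.85 ± 0.21, adjusted p = 0.00499). The 7 lower calls became 11 without either diestrus library, 4 without proestrus library 2, 1 without proestrus library 1 and 0 without either metestrus library. The 2 higher calls became 7 without either diestrus library, 1 without proestrus library 2, either estrus library or metestrus library 1 and 0 without metestrus library 2. The list of EGF and FGF ligands and receptors had 3 lower and 1 higher of 20 (20% called, against 16.9% of all genes tested). Its lower calls became 5 without either diestrus library, 1 without metestrus library 1 and 0 without metestrus library 2, and its higher calls 3 without either diestrus library and 0 without either proestrus library, estrus library 2 or either metestrus library.

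Interferon response genes had the highest share of called members among the 48 lists. Interferons act through factors such as Stat2 and Irf9, which bind the interferon-stimulated response element (ISRE) in the promoters of antiviral genes. Of 28 genes, 25 were lower in metestrus and 0 higher (89.3% called, against 16.9% of all genes tested), and the median was -2.37. Promoters of RefSeq (GRCm38.p6, from 250 bases before to 50 after the start of a gene) were available for 17 of the 25, and 11 of these 17 (64.7%) held the core TTTCNNTTTC on either strand, which reads GAAANNGAAA when it lies on the other strand. Of all 12375 genes with such a window, 482 (3.89%) held it. Matches may overlap each other. The motif was chosen after the values were seen, and a match is a description of the letters and not a binding site. The stretches around the matches, with every match in capitals, are shown for 5 of these genes because they span its main families. They are a ubiquitin-like protein (Isg15), an RNA-binding antiviral protein (Ifit1), an oligoadenylate synthetase (Oas1a), an immunity-related GTPase (Irgm1) and a guanylate-binding protein (Gbp2), each read in the direction of transcription.
Isg15 (GRCm38.p6, chr4:156200845-156200926, minus strand): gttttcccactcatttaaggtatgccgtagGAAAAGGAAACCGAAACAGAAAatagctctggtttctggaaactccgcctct
Ifit1 (GRCm38.p6, chr19:34640755-34640843, plus strand): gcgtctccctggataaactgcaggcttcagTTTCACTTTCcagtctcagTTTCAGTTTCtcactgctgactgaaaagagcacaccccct
Oas1a (GRCm38.p6, chr5:120907500-120907575, minus strand): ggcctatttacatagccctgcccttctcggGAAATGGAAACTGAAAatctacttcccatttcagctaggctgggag
Irgm1 (GRCm38.p6, chr11:48871405-48871480, minus strand): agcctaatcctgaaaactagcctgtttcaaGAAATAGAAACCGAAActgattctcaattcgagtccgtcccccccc
Gbp2 (GRCm38.p6, chr3:142620574-142620643, plus strand): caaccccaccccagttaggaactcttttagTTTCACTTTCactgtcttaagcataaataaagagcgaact

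Isg15, whose window holds 3 overlapping matches, had 9.29 and 4.62 CPM in metestrus, against 99.7 and 76 CPM in proestrus (-3.66 ± 0.44, adjusted p = 0.00546). Ifit1, with 2 separate matches, had 9.15 and 3.81 CPM in metestrus, against 109.7 and 71.1 CPM in proestrus (-3.80 ± 0.52, adjusted p = 0.00778). Irgm1 had 49.4 and 39.7 CPM in metestrus, against 177 and 164 CPM in proestrus (-1.93 ± 0.15, adjusted p = 0.00297). The metestrus libraries differed more from each other in Isg15 and Ifit1 than in Irgm1, and in all 3 genes both lay far under proestrus. Zbp1, a sensor of Z-form nucleic acids, showed the largest change of the list, with 4.96 and 4.02 CPM in metestrus, against 131 and 62.2 CPM in proestrus (-4.42 ± 0.47, adjusted p = 0.00437). Oas1a had 12.2 and 10.2 CPM in metestrus, against 117 and 87.3 CPM in proestrus (-3.19 ± 0.28). Gbp2 had 40.7 and 36.7 CPM in metestrus, against 136 and 95.9 CPM in proestrus (-1.58 ± 0.28). The Oas, Ifit and Gbp families hold near copies, so single members are uncertain.

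Some factors that carry the interferon signal were among the genes called lower. Stat2 had 31 and 26.4 CPM in metestrus, against 160.3 and 115 CPM in proestrus (-2.26 ± 0.27). Irf9, its DNA-binding partner, had 35.9 and 29.9 CPM in metestrus, against 118 and 101 CPM in proestrus (-1.73 ± 0.18). In both genes the stages did not overlap. Irf7, which raises interferon transcription, had 19.6 and 11.9 CPM in metestrus, against 265 and 129.9 CPM in proestrus (-3.65 ± 0.47). Its change on the log2 scale was close to that of Isg15.

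Of the list, Bst2 (tetherin) and the chemokines Cxcl9 and Cxcl10 did not pass. Bst2 had 149 and 120.1 CPM in metestrus, against 314 and 215 CPM in proestrus (adjusted p = 0.0642). Cxcl10 had 3.3 and 0.898 CPM in metestrus, against 4.67 and 0.596 CPM in proestrus, so its stages overlapped, and Cxcl9 was at or below 1.43 CPM in all 4 libraries. Receptors and ligands were looked up after the values were seen. Ifne, the interferon epsilon that epithelium of the female reproductive tract is known to make, had 0.402 and 0.77 CPM in metestrus, against 12.9 and 7.59 CPM in proestrus (-4.11 ± 0.80, adjusted p = 0.0197). Of the type I receptor chains, Ifnar1 had 89.7 and 81.4 CPM in metestrus, against 94.5 and 80.3 CPM in proestrus (-0.03 ± 0.12, adjusted p = 0.88). Ifnar2 had 33.8 and 33.6 CPM in metestrus, against 37.8 and 36.1 CPM in proestrus (-0.13 ± 0.12, adjusted p = 0.488). Neither chain passed, and the stages of Ifnar1 overlapped. The interferon gamma receptor chain Ifngr2 had 56 and 53.3 CPM in metestrus, against 204 and 145 CPM in proestrus (-1.68 ± 0.17, adjusted p = 0.00407). Ifnb1 had no count in the 4 libraries and Ifng had 1. The epithelial list moved in the same direction (16 of 20 lower, 1914 to 2008 CPM in metestrus against 6746 to 8201 CPM in proestrus), and its part in the interferon result was not tested. The 25 calls became 16 without proestrus library 1, 11 without metestrus library 1 and 0 without metestrus library 2.

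**Figure D2:**
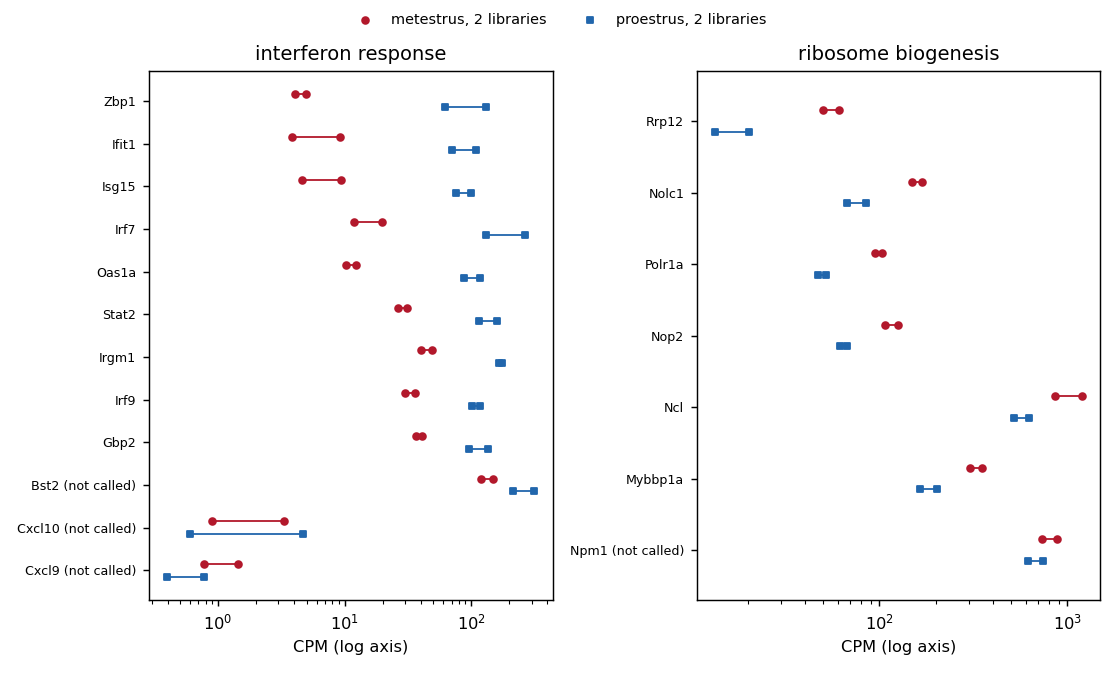
Levels of the members of the interferon response list (left) and the ribosome biogenesis list (right) that the text describes, in CPM on a log axis, 1 gene per row; red circles are the 2 metestrus libraries and blue squares the 2 proestrus libraries, joined by a line. In the interferon genes shown that were called, both metestrus libraries lie below both proestrus libraries, and in the called ribosome biogenesis genes shown both lie above.

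Antigen presentation genes were called in both directions, 6 of 24 lower and 5 higher. DESeq2 called 6 lower and 11 higher, and the fit of only the 4 libraries 7 lower and 9 higher. The 6 lower genes supply, load or regulate class I molecules. The peptide transporter Tap1 had 31.7 and 29.2 CPM in metestrus, against 75.9 and 65.6 CPM in proestrus (-1.22 ± 0.24, adjusted p = 0.0206). Tapbp (tapasin) had 103 and 93.8 CPM in metestrus, against 245 and 185 CPM in proestrus (-1.13 ± 0.17, adjusted p = 0.00992). The transporter Tap2, the immunoproteasome subunits Psmb8 and Psmb9 and the class I regulator Nlrc5 fell by 0.69 to 1.26 on the log2 scale. The 5 higher genes were of dendritic cells and class II. Cd74, the invariant chain of class II molecules, had 476 and 432 CPM in metestrus, against 216 and 253 CPM in proestrus (0.96 ± 0.26, adjusted p = 0.0495). Zbtb46, a factor of classical dendritic cells, had 16.4 and 17.7 CPM in metestrus, against 7.79 and 9.33 CPM in proestrus (0.99 ± 0.16). Itgax (CD11c), Flt3 and Batf3 rose by 0.98 ± 0.24, 1.24 ± 0.29 and 1.74 ± 0.38 on the log2 scale. The class II chains H2-Ab1 (0.97 ± 0.29, adjusted p = 0.0626) and H2-Aa (0.93 ± 0.37, adjusted p = 0.133) did not pass. For the 6 lower genes the median estrus position was -0.29, so estrus lay beyond proestrus. For the 5 higher genes it was 1.53, so estrus had already passed the metestrus level. The lower calls became 1 without proestrus library 2 and 0 without proestrus library 1 or either metestrus library, and the higher calls 8 without either diestrus library, 1 without proestrus library 2 and 0 without proestrus library 1 or either metestrus library.

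Of the macrophage and monocyte list 21.1% was called, against 16.9% of all genes tested. The granulocyte and mast cell list had 5.88% called and the lymphocyte and plasma cell list 8.7%. Of 19 macrophage and monocyte genes, 2 were higher and 2 lower. Gpnmb, a glycoprotein of lipid-laden macrophages, had 9.02 and 10.6 CPM in metestrus, against 1.44 and 2.03 CPM in proestrus (2.49 ± 0.39). Lyz2, a lysozyme, had 349 and 333 CPM in metestrus, against 154 and 156 CPM in proestrus (1.13 ± 0.29). Cd14, the co-receptor for endotoxin, was lower with 49.5 and 46 CPM in metestrus, against 466 and 239 CPM in proestrus (-2.88 ± 0.48). The lysosomal Cd68 was also lower (-1.59 ± 0.34), and Csf1r, the receptor that macrophages need to live, had 79.9 and 74.8 CPM in metestrus, against 68.6 and 41.2 CPM in proestrus and did not pass (adjusted p = 0.199).

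Of 17 granulocyte and mast cell genes 1 was lower (Ly6g), and of 23 lymphocyte and plasma cell genes 2 were lower (Cd79b and Sdc1). The median log2 fold changes of the 2 lists were 0.596 and -0.11. In the granulocyte and mast cell list 3 higher and 1 lower had an unadjusted p under 0.05. In the lymphocyte and plasma cell list these were 4 higher and 3 lower. The mast cell protease Cma1 had 5.09 and 2.82 CPM in metestrus, against 1.03 and 1.14 CPM in proestrus and did not pass (adjusted p = 0.088). Cpa3, another, had 3.93 and 2.74 CPM in metestrus, against 0.923 and 0.744 CPM in proestrus and did not pass (adjusted p = 0.0762). The immunoglobulin kappa constant gene Igkc had 1025 and 1212 CPM in metestrus, against 336 and 497 CPM in proestrus and did not pass (adjusted p = 0.109). Of 150 immunoglobulin variable genes tested 9 were higher and 0 lower, beside 6.68% higher and 10.3% lower of all genes tested. Higher calls were thus no more frequent among them than over all genes. Their median log2 fold change was 1.19, however, against 0.00675 over all genes tested. The lower calls of these 2 lists became 0 without either metestrus library or without proestrus library 1, and those of the lymphocyte list also without proestrus library 2. The macrophage calls became 0 without either metestrus library or without proestrus library 1. In that list the higher calls became 1 and the lower calls 3 without proestrus library 2, and the lower calls 1 without either estrus library. DESeq2, and the fits without either diestrus library, called 3 granulocyte and mast cell genes higher, and the fits without either diestrus library called 4 lymphocyte and plasma cell genes higher.

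Secreted defence proteins and mucins changed strongly in both directions, with 8 of 19 tested lower and 3 higher; 7 further members had too few counts. The gel-forming mucin Muc5b had 0.134 and 0.214 CPM in metestrus, against 6.05 and 4.42 CPM in proestrus (-4.86 ± 0.59, adjusted p = 0.00563). Dmbt1, a scavenger receptor of mucosal surfaces, had 0.0446 and 0.428 CPM in metestrus, against 7.79 and 6.85 CPM in proestrus (-4.90 ± 0.62). Muc20, a mucin of the cell surface, had 6.34 and 13.3 CPM in metestrus, against 189 and 117 CPM in proestrus (-3.96 ± 0.65). In all 3 both metestrus libraries lay far below proestrus. Bpifb1, a relative of Bpifb5, had 1.7 and 1.84 CPM in metestrus and no count in proestrus, at least 23.4-fold higher in metestrus against the floor of 3 counts. Thus Bpifb1, Bpifb5 and Lyz2 were higher, while Muc1, Muc5b, Muc20 and Lcn2 were lower. The epithelial list moved with the lower genes (16 of 20), and its part was not tested. The 8 lower calls became 3 without proestrus library 1, 2 without metestrus library 1 and 0 without metestrus library 2. The 3 higher calls became 1 without either metestrus library.

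Chemokines and complement genes that were called were nearly all lower. Of 27 chemokine genes, 9 were lower and 1, Cxcl15, higher. Cxcl17, an attractant of mucosal surfaces, had 16.6 and 11.7 CPM in metestrus, against 284 and 156 CPM in proestrus (-3.96 ± 0.36, adjusted p = 0.00366). Ccl28, which draws IgA plasma cells, had 46.7 and 48.4 CPM in metestrus, against 249.7 and 214 CPM in proestrus (-2.28 ± 0.29). Ccl11 (eotaxin), which draws eosinophils, had 22.7 and 24.1 CPM in metestrus, against 187 and 120.5 CPM in proestrus (-2.71 ± 0.65). Their stages did not overlap, and proestrus library 1 was the highest in each. Of 25 complement genes, 5 were lower (20% called, against 16.9% of all genes tested). Cfb (factor B of the alternative pathway) had 1.03 and 0.898 CPM in metestrus, against 29.8 and 13.4 CPM in proestrus (-4.48 ± 0.59, adjusted p = 0.00656). Cd55, which protects cells from complement, had 58.9 and 50.2 CPM in metestrus, against 269 and 271 CPM in proestrus (-2.31 ± 0.38). The 9 chemokine calls became 4 without proestrus library 1, 1 without metestrus library 1 and 0 without metestrus library 2, and the count of higher ones 2 without either diestrus library and 0 without either proestrus library or either metestrus library. The 5 complement calls became 1 without proestrus library 1 and 0 without either metestrus library.

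Of 15 hedgehog genes tested, 6 were higher and 0 lower in metestrus, among them the ligand, a receptor and transcription factors. Ihh, the ligand made by uterine epithelium (GRCm38, chr1:74945315-74951672, minus strand), had 35.7 and 35.4 CPM in metestrus, against 0.154 and 0.546 CPM in proestrus (6.63 ± 1.30, adjusted p = 0.0204). Ptch1, the receptor and a target of the pathway, had 149.9 and 185 CPM in metestrus, against 29 and 32.9 CPM in proestrus (2.44 ± 0.45, adjusted p = 0.0172). In both genes the stages lay far apart. Gli1, the transcription factor whose own gene is the usual readout, had 156 and 143 CPM in metestrus, against 10.2 and 18.1 CPM in proestrus (3.40 ± 0.68, adjusted p = 0.0211). Among the 6 called members the ligand changed most. Gli2 and Gli3, the factors that relay the signal, rose by 1.10 ± 0.14 and 0.88 ± 0.12. The signal transducer Smo had 248 and 215 CPM in metestrus, against 150.3 and 164 CPM in proestrus and did not pass (adjusted p = 0.0755). Hhip, which binds the ligand, had 27 and 39.6 CPM in metestrus, against 13.1 and 11.1 CPM in proestrus and did not pass (adjusted p = 0.313). The median over the 15 was 0.88. The GLI site TGGGTGGTC, which reads GACCACCCA on the other strand, was in none of the 4 called genes with a promoter window and in 31 of 12375 genes (0.251%). The list of epithelial markers moved the other way (16 of 20 lower), and its part was not tested. The 6 calls became 2 without proestrus library 2 and 0 without proestrus library 1 or either metestrus library. The diestrus libraries, which share in the spread, disagreed on Ihh, with 8.46 and 92.4 CPM.

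Of 34 Wnt pathway genes tested, 10 were higher and 0 lower, with a median of 0.78. The members that rose were ligands, a receptor and inhibitors. Among ligands, Wnt9a had 41.3 and 32.6 CPM in metestrus, against 21.7 and 21.5 CPM in proestrus (0.77 ± 0.15). Wnt2 had 2.41 and 2.27 CPM in metestrus, against 0.461 and 0.844 CPM in proestrus (1.83 ± 0.38), and Wnt5b also passed (0.79 ± 0.21). Lgr5, the receptor of R-spondins, which amplify the signal, had 8.75 and 7.79 CPM in metestrus, against 0.103 and 0.397 CPM in proestrus (5.01 ± 0.71, adjusted p = 0.00855). Znrf3, which removes Wnt receptors from the surface and is itself a target, had 29.6 and 32 CPM in metestrus, against 13.7 and 15.1 CPM in proestrus (1.10 ± 0.13, adjusted p = 0.00522). Both were higher in each metestrus library than in either proestrus library. Of secreted inhibitors, Dkk3 had 178 and 152 CPM in metestrus, against 29.3 and 43 CPM in proestrus (2.19 ± 0.33). Sfrp1 had 33 and 43.2 CPM in metestrus, against 16.7 and 22.7 CPM in proestrus (0.95 ± 0.21), and Wif1 is given above. The intracellular inhibitors Nkd1 and Nkd2 rose by 0.80 ± 0.19 and 1.29 ± 0.35. The 10 calls became 18 without either diestrus library, 6 without proestrus library 2 or either estrus library, 2 without proestrus library 1, 1 without metestrus library 1 and 0 without metestrus library 2. DESeq2 called 15 members higher and 2 lower, and the fits without either diestrus library called 18 higher and 5 lower.

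Of 16 gland genes, 3 were higher, Cxcl15, Wfdc3 and Foxa2 (18.8% called, against 16.9% of all genes tested). Foxa2, the transcription factor of uterine glands, had 15.5 and 16.6 CPM in metestrus, against 8 and 5.86 CPM in proestrus (1.21 ± 0.27, adjusted p = 0.0278). Wfdc3, a secreted protease inhibitor-like protein, had 4.69 and 3.04 CPM in metestrus, against 0.205 and 0.199 CPM in proestrus (4.22 ± 0.62). Their median was -0.06 over the 16, and -0.13 with members that had no count in a stage at their bound. Lif, the glandular cytokine of implantation, had 9.73 and 12.2 CPM in metestrus, against 54.5 and 29.1 CPM in proestrus and did not pass (-1.93 ± 0.53, adjusted p = 0.0523), though it passed under 9 alternatives, among them DESeq2, the replicate block and the fits without either estrus or either diestrus library. The 3 calls became 1 without proestrus library 2 and 0 without proestrus library 1 or either metestrus library. Fits without proestrus library 2, estrus library 1 or estrus library 2 called 1 member lower, and those without either diestrus library 3. Among genes of growth factor signals, Irs1, the insulin receptor substrate, had 77.3 and 82.7 CPM in metestrus, against 47.3 and 40.2 CPM in proestrus (0.87 ± 0.12, adjusted p = 0.00742). Bmp8a, a bone morphogenetic protein, had 0.625 and 0.299 CPM in metestrus, against 9.49 and 3.92 CPM in proestrus (-3.84 ± 0.66, adjusted p = 0.0137). The lists behind them held 2 higher and 1 lower of 17 (insulin-like growth factors) and 3 higher and 1 lower of 31 (BMP, activin and TGF-beta). In all, 17.6% and 12.9% of their members were called, against 16.9% of all genes tested (6.68% higher and 10.3% lower). These calls are too few to give either list a direction. The insulin-like growth factor calls became 4 without either diestrus library, 1 without either proestrus library or either estrus library and 0 without either metestrus library for higher and 0 without proestrus library 1 or either metestrus library for lower ones. The BMP, activin and TGF-beta calls became 10 without either diestrus library and 0 without either proestrus library or either metestrus library for higher and 4 without either diestrus library, 2 without either estrus library and 0 without proestrus library 1 or either metestrus library for lower ones.

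Of 30 factors that build ribosomes, 18 were higher and 0 lower (60% called), with a median of 0.83. Polr1a, the largest subunit of RNA polymerase I, had 94.4 and 103 CPM in metestrus, against 47 and 52 CPM in proestrus (0.99 ± 0.12, adjusted p = 0.00607). Nolc1, a nucleolar chaperone, had 149.9 and 169 CPM in metestrus, against 67.1 and 84.7 CPM in proestrus (1.07 ± 0.18). Rrp12, which takes part in the export of ribosomal subunits, had 50.3 and 60.6 CPM in metestrus, against 13.4 and 20.2 CPM in proestrus (1.72 ± 0.28). These 3 changed by about 2-fold to 3-fold. Nucleolin (Ncl), an abundant protein of the nucleolus, had 856 and 1198 CPM in metestrus, against 518 and 624 CPM in proestrus (0.85 ± 0.22, adjusted p = 0.0439). Npm1 (nucleophosmin) had 736 and 877 CPM in metestrus, against 615 and 744 CPM in proestrus and did not pass (adjusted p = 0.338). Metestrus library 2 stood above library 1 in all 18 called genes, an order that was not counted over all genes. In these 18 the metestrus mean was also above the means of estrus and diestrus. Estrus and diestrus were both closer to proestrus for 17 of the 18, with median positions of -0.49 and 0.39. The count became 11 without either estrus library, 8 without proestrus library 2, 2 without metestrus library 1 and 0 without proestrus library 1 or metestrus library 2.

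Of the 17 called genes of ribosome biogenesis with a promoter window, 5 (29.4%) held the E-box CACGTG, a palindrome, against 1348 of 12375 genes (10.9%). Over all 25 members with a window, called or not, 7 held it. That motif, which Myc is known to bind, was also chosen after the values were seen. The windows of Nop2, a methyltransferase of ribosomal RNA, and Mybbp1a, a nucleolar regulator, illustrate it, with the motif in capitals.
Nop2 (GRCm38.p6, chr6:125131793-125131858, plus strand): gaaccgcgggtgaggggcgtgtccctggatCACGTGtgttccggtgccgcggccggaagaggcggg
Mybbp1a (GRCm38.p6, chr11:72441337-72441376, plus strand): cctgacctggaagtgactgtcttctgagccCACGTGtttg
Nop2 had 107 and 125 CPM in metestrus, against 61.4 and 67.3 CPM in proestrus (0.85 ± 0.16, adjusted p = 0.0185). Mybbp1a had 303 and 349 CPM in metestrus, against 165 and 203 CPM in proestrus (0.83 ± 0.15, adjusted p = 0.0166). In both genes the 2 metestrus libraries lay above the 2 proestrus libraries. In Nop2 the motif lies before the annotated start and in Mybbp1a after it.

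**Figure D3:**
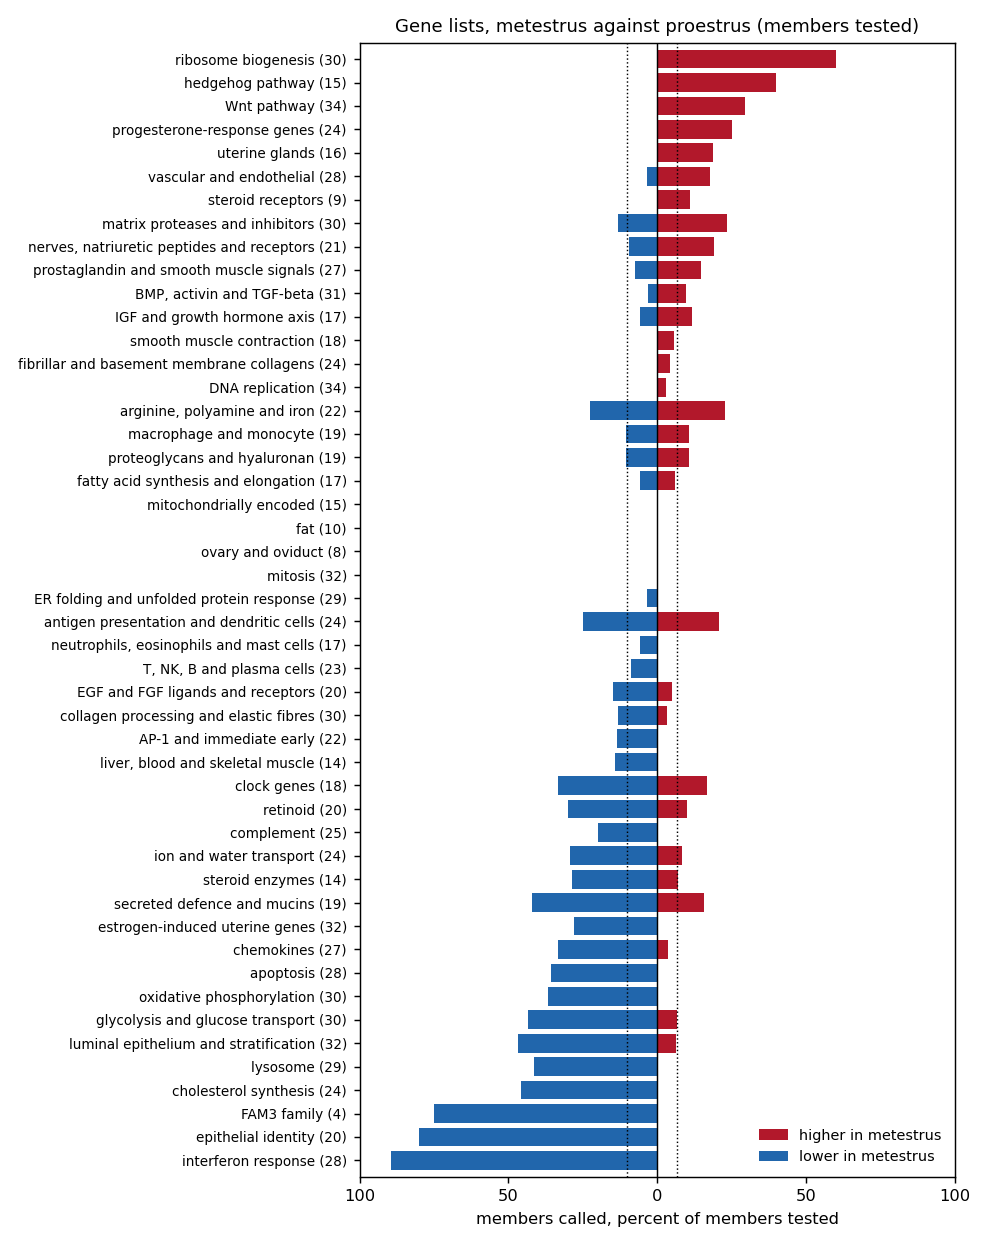
Share of the tested members of each of the 48 gene lists that passed the test, in percent, with lower calls drawn to the left in blue and higher calls to the right in red; the number of members tested stands in parentheses. The dotted lines mark the shares over all genes tested, 10.3% lower and 6.68% higher.

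Polyamine, arginine and iron genes divided. On the arginine side, Ass1 and Arg1 were lower, as given above. Asl, the next enzyme after Ass1, was higher with 55.1 and 55 CPM in metestrus, against 26.9 and 28.4 CPM in proestrus (0.99 ± 0.14, adjusted p = 0.00882). Arg2, the mitochondrial arginase, was higher with 23.9 and 28.8 CPM in metestrus, against 6.36 and 4.07 CPM in proestrus (2.34 ± 0.30, adjusted p = 0.0065). Of the polyamine genes, Srm (spermidine synthase) had 174 and 186 CPM in metestrus, against 63.1 and 76.5 CPM in proestrus (1.36 ± 0.19), and Amd1, which supplies its substrate, rose by 0.54 ± 0.10. Sat1, which acetylates polyamines for breakdown, was lower with 55 and 59.3 CPM in metestrus, against 392 and 187 CPM in proestrus (-2.34 ± 0.36, adjusted p = 0.0101). The 2 arginases thus moved in opposite directions. Slc40a1 (ferroportin), the iron exporter, had 82.8 and 99.6 CPM in metestrus, against 641 and 532 CPM in proestrus (-2.68 ± 0.17, adjusted p = 0.00176). Ftl1, the ferritin light chain of iron storage, had 276 and 281 CPM in metestrus, against 525 and 472 CPM in proestrus (-0.84 ± 0.12). In the list of 22 tested, 5 were higher and 5 lower. The higher calls became 3 without proestrus library 2, 1 without proestrus library 1 or metestrus library 1 and 0 without metestrus library 2, and the lower calls 2 without either metestrus library.

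Of 24 genes of cholesterol synthesis and uptake, 11 were lower and 0 higher, with a median of -0.98. Hmgcs1, an enzyme of an early step, had 59.1 and 68.1 CPM in metestrus, against 139 and 137 CPM in proestrus (-1.12 ± 0.17, adjusted p = 0.0102). The proestrus libraries nearly coincided in this gene. Mvd, which makes isopentenyl pyrophosphate, had 19.8 and 16.6 CPM in metestrus, against 69.3 and 59.7 CPM in proestrus (-1.83 ± 0.27, adjusted p = 0.00933). Of 7 called genes with a promoter window, Hmgcs1 was the only one that held TCACNCCAC on either strand, the core that sterol regulatory element binding proteins recognise, against 179 of 12375 genes (1.45%). Its window is shown with the match in capitals.
Hmgcs1 (GRCm38.p6, chr13:119690184-119690252, plus strand): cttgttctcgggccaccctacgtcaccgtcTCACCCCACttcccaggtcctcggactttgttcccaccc
In contrast to the epithelial genes, all 11 were on the metestrus side of the midpoint already in estrus, with a median estrus position of 1.17. The 11 calls became 6 without proestrus library 2 and 0 without proestrus library 1 or either metestrus library.

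Many genes of energy metabolism were lower as well. Of 30 genes of glycolysis and glucose transport, 13 were lower and 2 higher. Ldha, the lactate dehydrogenase of muscle type, had 619.9 and 617 CPM in metestrus, against 1324 and 1080.0 CPM in proestrus (-0.96 ± 0.20, adjusted p = 0.0239). The aldolase Aldoa had 440.3 and 411 CPM in metestrus, against 1115 and 739.7 CPM in proestrus (-1.12 ± 0.24). Pdk1, a kinase that inhibits pyruvate dehydrogenase, had 7.37 and 13.7 CPM in metestrus, against 72.5 and 31.3 CPM in proestrus (-2.30 ± 0.54). The stages did not overlap in these genes, and proestrus library 1 was the highest in each. Ldhb, the heart-type subunit, was one of the 2 that rose, with 151 and 151 CPM in metestrus, against 54.2 and 57.3 CPM in proestrus (1.43 ± 0.15, adjusted p = 0.00449). So the 2 lactate dehydrogenase subunits moved in opposite directions. Of 30 nuclear genes of oxidative phosphorylation 11 were lower, all by under 2-fold. None of the 15 transcripts encoded by mitochondrial DNA passed with edgeR, while 0 higher and 4 lower had an unadjusted p under 0.05. DESeq2 called 2 of them lower, limma-voom 0, and the fits without either diestrus library 1. The 13 lower calls of glycolysis became 8 without estrus library 2, 7 without estrus library 1, 1 without metestrus library 1 and 0 without proestrus library 1 or metestrus library 2, and the 2 higher ones 1 without proestrus library 1 or metestrus library 1 and 0 without metestrus library 2. The 11 of oxidative phosphorylation became 7 without estrus library 2, 6 without estrus library 1, 1 without proestrus library 2 and 0 without proestrus library 1 or either metestrus library. The fit with no filter on low counts called 7 of them.

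Of 29 lysosomal genes 12 were lower, led in size by the protease Ctsl (cathepsin L), with 223 and 214 CPM in metestrus, against 2304 and 1139 CPM in proestrus (-2.98 ± 0.43, adjusted p = 0.00882). Asah1, acid ceramidase, had 79.3 and 86.7 CPM in metestrus, against 201 and 163 CPM in proestrus (-1.13 ± 0.13, adjusted p = 0.00537). Of 28 apoptosis genes 10 were lower. Perp, a p53 target of desmosomes, had 38.9 and 34.6 CPM in metestrus, against 233 and 204 CPM in proestrus (-2.57 ± 0.18, adjusted p = 0.00265). Tnfsf10 (TRAIL), a ligand of death receptors, had 36.6 and 44.4 CPM in metestrus, against 147 and 113 CPM in proestrus (-1.69 ± 0.20). In these genes the stages did not overlap. Both lists moved with the epithelial list (16 of 20 lower), and its part was not tested. The 12 lysosomal calls became 3 without proestrus library 1 and 0 without either metestrus library, and the 10 apoptosis calls 5 without proestrus library 1, 1 without metestrus library 1 and 0 without metestrus library 2. Of 22 immediate early genes 13.6% were called, against 16.9% of all genes tested. The 3 lower ones were Fos, Junb and the epithelial factor Klf4, with log2 fold changes of -2.31 ± 0.41, -1.28 ± 0.23 and -1.75 ± 0.36. Those 3 calls became 5 without either diestrus library, 1 without proestrus library 2 and 0 without proestrus library 1 or either metestrus library. Without either diestrus library 1 apoptosis gene and 2 immediate early genes were called higher.

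Matrix proteases and inhibitors gave 7 higher and 4 lower of 30 tested. Among plasminogen activators, tissue-type Plat had 287 and 215 CPM in metestrus, against 50.1 and 61 CPM in proestrus (2.17 ± 0.56, adjusted p = 0.044). The urokinase-type Plau had 21 and 25.4 CPM in metestrus, against 206 and 112 CPM in proestrus (-2.78 ± 0.41, adjusted p = 0.00934), so the 2 activators moved in opposite directions. Serpine2, which inhibits both, had 168 and 199 CPM in metestrus, against 47.4 and 38.7 CPM in proestrus (2.09 ± 0.37). Mmp2 (gelatinase A) had 379 and 364 CPM in metestrus, against 206 and 224 CPM in proestrus (0.79 ± 0.13). Mmp3 (stromelysin) had 8.12 and 12.7 CPM in metestrus, against 0.769 and 2.63 CPM in proestrus (2.61 ± 0.48). In the 7 higher genes estrus stood near the metestrus level, at a median position of 0.83. The higher calls became 3 without proestrus library 2, 1 without proestrus library 1 and 0 without either metestrus library, and the lower calls 2 without either proestrus library and 0 without either metestrus library.

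Most collagen chains did not pass, with 1 of 24 higher and a median of -0.075. Col14a1, of a collagen that binds fibrils, had 219 and 179 CPM in metestrus, against 65.3 and 90.9 CPM in proestrus (1.35 ± 0.35). Among 30 genes of collagen processing and elastic fibres 4 were lower and 1 higher (16.7% called, against 16.9% of all genes tested). The cross-linking oxidase Lox had 99.4 and 84.2 CPM in metestrus, against 426 and 416 CPM in proestrus (-2.20 ± 0.30, adjusted p = 0.00796). Fbln2, a fibulin of elastic fibres, had 188 and 158 CPM in metestrus, against 649 and 482 CPM in proestrus (-1.71 ± 0.20, adjusted p = 0.00528). The collagen chaperone Serpinh1 was higher with 2504 and 1896 CPM in metestrus, against 1209 and 1271 CPM in proestrus (0.83 ± 0.18, adjusted p = 0.0282). In Lox and Fbln2 both proestrus libraries lay over 2-fold above both metestrus libraries. Of 19 genes of proteoglycans and hyaluronan, 21.1% were called. Of matrix sugars and their receptors, Cd44, the hyaluronan receptor, had 126 and 143 CPM in metestrus, against 41.9 and 38.6 CPM in proestrus (1.74 ± 0.22, adjusted p = 0.00593). Ogn (osteoglycin), a small leucine-rich proteoglycan, had 216 and 213 CPM in metestrus, against 625 and 499 CPM in proestrus (-1.39 ± 0.22, adjusted p = 0.0109). The 4 lower calls of fibre processing became 8 without either diestrus library, 2 without either proestrus library, 1 without metestrus library 1 and 0 without metestrus library 2, and its higher call 4 without either diestrus library and 0 without either proestrus library, estrus library 2 or either metestrus library. For proteoglycans, with 2 in each direction of 19, the higher calls became 5 without either diestrus library, 1 without proestrus library 1 or metestrus library 1 and 0 without metestrus library 2, and the lower ones 4 without either diestrus library, 1 without proestrus library 1 or metestrus library 1 and 0 without metestrus library 2. DESeq2, limma-voom and the fits without either estrus or either diestrus library called 2 collagens lower. The count of higher collagens became 2 without either diestrus library and 0 without either proestrus library or either metestrus library, and 2 with DESeq2.

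Clock genes were called in both directions, 6 of 18 lower and 3 higher. Both activators of the circadian loop were higher. Clock had 112 and 112 CPM in metestrus, against 78.1 and 75 CPM in proestrus (0.55 ± 0.10, adjusted p = 0.0157). Its partner Arntl (Bmal1) had 37.3 and 39.4 CPM in metestrus, against 22.7 and 23.4 CPM in proestrus (0.73 ± 0.19, adjusted p = 0.0429). The repressor Cry1 was higher with them (1.27 ± 0.30). Several genes that the activators drive were lower. Dbp, an output factor, had 10 and 7.57 CPM in metestrus, against 25 and 26.3 CPM in proestrus (-1.54 ± 0.22, adjusted p = 0.00871). Per3, a period gene, had 8.04 and 8.26 CPM in metestrus, against 26.2 and 22.7 CPM in proestrus (-1.59 ± 0.15, adjusted p = 0.0038). Nr1d2 (Rev-erb beta), which represses Arntl, had 29.9 and 24.8 CPM in metestrus, against 62 and 63.5 CPM in proestrus (-1.20 ± 0.12, adjusted p = 0.00396). The libraries of a stage lay close together in these genes, and Tef, a relative of Dbp, fell by 1.17 on the log2 scale. The repressors Bhlhe40 and Bhlhe41 were lower too (-2.45 ± 0.22 and -1.80 ± 0.42). Per1 (-0.46 ± 0.20, adjusted p = 0.154) and Per2 (0.52 ± 0.33, adjusted p = 0.309) did not pass. The hour at which uteri were taken is not given in the sources used here, and its part was not tested. The lower calls became 3 without proestrus library 1 or metestrus library 1 and 0 without metestrus library 2, and the higher calls 1 without either estrus library and 0 without either proestrus library or either metestrus library.

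In the list of nerve and natriuretic peptide genes, 3 of the 4 that rose handle noradrenaline. Slc6a2, the noradrenaline transporter, had 27.8 and 36.1 CPM in metestrus, against 0.615 and 2.18 CPM in proestrus (4.50 ± 0.54, adjusted p = 0.00546). Maob, a monoamine oxidase, had 36 and 46.6 CPM in metestrus, against 10.2 and 13.1 CPM in proestrus (1.83 ± 0.24, adjusted p = 0.0065). Slc22a3, a low-affinity transporter of monoamines, had 31.2 and 23.8 CPM in metestrus, against 8.72 and 11.6 CPM in proestrus (1.44 ± 0.23, adjusted p = 0.0119). In all 3 both metestrus libraries were above both proestrus libraries. The breakdown enzyme Maoa (0.87 ± 0.33, adjusted p = 0.114) did not pass. Of the receptors of the GDNF family, Gfra2 had 14.4 and 12.7 CPM in metestrus, against 3.69 and 4.76 CPM in proestrus (1.68 ± 0.28). Gfra1 was lower with 3.88 and 8.81 CPM in metestrus, against 66 and 31.5 CPM in proestrus (-2.94 ± 0.58). Nppc, the C-type natriuretic peptide, had 4.37 and 2.57 CPM in metestrus, against 26.5 and 21.5 CPM in proestrus (-2.79 ± 0.48, adjusted p = 0.014). Of 21 tested, 4 were higher and 2 lower. The higher calls became 2 without metestrus library 1, 1 without proestrus library 1 and 0 without metestrus library 2, and the lower calls 0 without proestrus library 1 or either metestrus library.

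Retinoid genes were called in both directions, most of them lower. Aldh1a2, which makes retinoic acid in the stroma, had 246 and 251 CPM in metestrus, against 813 and 750.3 CPM in proestrus (-1.65 ± 0.14, adjusted p = 0.00331). Dhrs9, which makes its precursor retinal, had 15.6 and 18.1 CPM in metestrus, against 192 and 166 CPM in proestrus (-3.41 ± 0.36, adjusted p = 0.00441). Stra6, the receptor that takes up retinol, rose with 95.2 and 75.7 CPM in metestrus, against 5.95 and 5.46 CPM in proestrus (3.90 ± 0.68, adjusted p = 0.0141). The uptake receptor and Aldh1a2 thus went in opposite directions. Aldh1a3, a relative of Aldh1a2, had 7.14 and 7.53 CPM in metestrus, against 1.38 and 0.744 CPM in proestrus (2.78 ± 0.45). Cyp26b1, which breaks retinoic acid down, had 0.982 and 1.28 CPM in metestrus, against 9.38 and 6.3 CPM in proestrus (-2.78 ± 0.67, adjusted p = 0.0357). Of 20 tested, 6 were lower and 2 higher. In the 6 estrus already stood at the metestrus level, with a median position of 1.07. The lower calls became 3 without proestrus library 2, 2 without proestrus library 1, 1 without metestrus library 1 and 0 without metestrus library 2, and the higher calls 1 without proestrus library 2 and 0 without proestrus library 1 or either metestrus library.

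Among 14 steroid enzymes 4 were lower and 1 higher. Hsd17b2, which oxidises estradiol to the weaker estrone, had 0.357 and 0.214 CPM in metestrus, against 41.3 and 7.2 CPM in proestrus (-6.38 ± 1.06, adjusted p = 0.0124). Ugt1a7c, a glucuronosyltransferase, had 4.06 and 4.58 CPM in metestrus, against 46.8 and 36.1 CPM in proestrus (-3.26 ± 0.20, adjusted p = 0.00176). Ugt1a genes share exons, so that count is uncertain. In the vascular list, with 5 higher and 1 lower of 28, the growth factor receptor Kdr of endothelium had 97.5 and 124 CPM in metestrus, against 56 and 62.7 CPM in proestrus (0.90 ± 0.16, adjusted p = 0.0141). The growth factor Vegfb had 43.6 and 36.7 CPM in metestrus, against 20.8 and 22.1 CPM in proestrus (0.90 ± 0.13). Of 27 prostaglandin and muscle signal genes, 4 were higher and 2 lower. The vascular list had 21.4% called and the prostaglandin and muscle signal list 22.2%, against 16.9% of all genes tested. Ptgfr, the receptor of prostaglandin F, had 11.2 and 13.1 CPM in metestrus, against 2.62 and 4.27 CPM in proestrus (1.82 ± 0.46). The gap junction protein Gja1, a channel between muscle cells, had 131 and 144 CPM in metestrus, against 293 and 226 CPM in proestrus (-0.91 ± 0.21, adjusted p = 0.0312). The 4 lower calls of steroid enzymes became 2 without proestrus library 1 and 1 without either metestrus library, and the higher one 0 without either proestrus library, either estrus library or either metestrus library. The 5 higher vascular calls became 3 without either estrus library, 2 without proestrus library 2, 1 without metestrus library 1 and 0 without proestrus library 1 or metestrus library 2, and the lower one 3 without either diestrus library and 0 without proestrus library 1, either estrus library or either metestrus library. The 4 higher prostaglandin calls became 1 without proestrus library 2 and 0 without proestrus library 1 or either metestrus library, and the 2 lower ones 4 without either diestrus library, 1 without proestrus library 2 or either estrus library and 0 without proestrus library 1 or either metestrus library.

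Several lists gave no or few calls. None of 32 mitosis genes passed with edgeR, DESeq2 or limma-voom or under any other alternative run, while 0 higher and 0 lower had an unadjusted p under 0.05, and their median was 0.09. In 23 of the 32 both metestrus libraries lay between the 2 proestrus libraries, an order that was not counted over all genes. Ccnb1 (cyclin B1) was one of the 23, with 35.9 and 42.1 CPM in metestrus, against 21.8 and 52.6 CPM in proestrus. DNA replication had 1 of 34 members higher, Pole, a subunit of DNA polymerase epsilon, with 22.2 and 30.4 CPM in metestrus, against 5.69 and 11.9 CPM in proestrus (1.58 ± 0.39, adjusted p = 0.0392), and a median of 0.84. That count depended on the fit. DESeq2 called 12 members higher, limma-voom 3, the fit with a replicate block 10, that with no filter on low counts 5, and that of the 4 libraries alone 12. It became 13 without either diestrus library, 2 without proestrus library 2 and 0 without proestrus library 1, either estrus library or either metestrus library. Smooth muscle contraction had 1 of 18 higher (Synpo2), which ended without either metestrus library, either proestrus library or estrus library 2. Without either diestrus library 2 of its members were called lower. Acta2, smooth muscle actin, had 4084 and 3503 CPM in metestrus, against 4691 and 3572 CPM in proestrus (adjusted p = 0.829). Folding genes of the endoplasmic reticulum had 1 of 29 lower (Sec61b), which became 0 without either proestrus library, either estrus library or either metestrus library, while 1 was called higher without either diestrus library. Fatty acid synthesis had 1 of 17 higher (Elovl4) and 1 lower (Acss2). These became 3 without either diestrus library and 0 without either proestrus library, either estrus library or either metestrus library for higher and 4 without diestrus library 1, 3 without diestrus library 2 and 0 without proestrus library 1 or either metestrus library for lower calls.

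Motifs were also searched in promoter windows of other lists. The estrogen response element GGTCANNNTGACC, a palindrome, was in 0 of the 7 called estrogen-induced genes with a window and in 1 of 12375 genes. In the DNA replication list, the E2F site TTTGGCGC, which reads GCGCCAAA on the other strand, was in 6 of 28 members with a window, against 123 of 12375 genes (0.994%). The E2F site TTTCGCGC, which reads GCGCGAAA on the other strand, was also in 6 of the 28, against 82 of 12375 genes (0.663%). In the mitosis list, the cell cycle homology element TTTGAA, which reads TTCAAA on the other strand, was in 20 of 27, against 1865 of 12375 genes (15.1%). The variant TTCGAA, a palindrome, was in 3 of the 27, against 291 of 12375 genes (2.35%), and the CCAAT box, ATTGG on the other strand, in 21 of the 27, against 5219 of 12375 genes (42.2%). In the list of endoplasmic reticulum folding, the stress response element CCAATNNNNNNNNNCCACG, which reads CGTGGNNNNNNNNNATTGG on the other strand, was in 8 of 25 members with a window, against 21 of 12375 genes (0.17%). These are descriptions of the letters in lists of which 0 or 1 members passed, apart from the estrogen-induced genes.

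Markers of ovary and oviduct, of fat, and of liver, blood and skeletal muscle were looked at for carry-over. No list covered cervix or vagina, so carry-over from them was not tested. None of 8 ovary and oviduct genes passed with edgeR, while 3 higher and 1 lower had an unadjusted p under 0.05. DESeq2 called 1 of them higher and limma-voom 0, and the fits without either diestrus library called 1 higher and 1 lower. None of 10 fat genes passed with edgeR, DESeq2 or limma-voom, while 0 higher and 0 lower had an unadjusted p under 0.05. The fat genes were uneven within the stages, as Adipoq shows with 0 and 4.88 CPM in metestrus, against 2.26 and 0 CPM in proestrus. Of 14 liver, blood and skeletal muscle genes 2 were lower, Alb and Apoa2, and neither passed without proestrus library 1. The count became 4 without proestrus library 2 and 0 without proestrus library 1, either estrus library or either metestrus library, and 1 was called higher without either diestrus library.

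**Figure D4:**
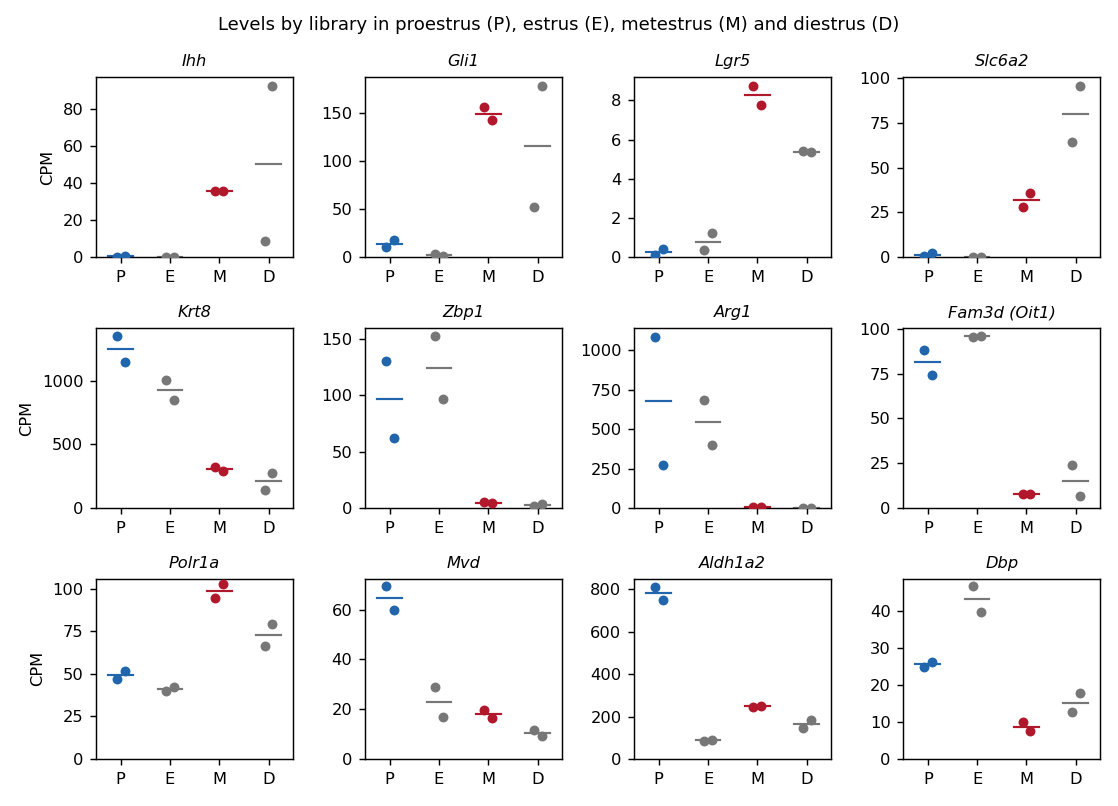
Levels of 12 genes in CPM on linear axes that start at 0, by library (points) with the stage mean (line), in cycle order proestrus (P), estrus (E), metestrus (M) and diestrus (D). Ihh, Gli1, Lgr5 and Slc6a2 are near 0 in proestrus and estrus, Krt8, Zbp1, Arg1 and Fam3d stay high into estrus, Mvd and Aldh1a2 are down by estrus, and Polr1a has its highest mean in metestrus.

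The other 2 stages show where in the cycle the difference between metestrus and proestrus lay. For the 1857 lower genes, estrus was on the proestrus side of the midpoint in 1441 (77.6%) and diestrus on the metestrus side in 1637 (88.2%). For the 1210 higher genes these numbers were 833 (68.8%) and 985 (81.4%). Over all 18114 genes tested, estrus was on the proestrus side in 11271 (62.2%) and diestrus on the metestrus side in 11581 (63.9%). Estrus and diestrus libraries did not enter the contrast, apart from the shared spread. Interferon (25 of 25), epithelial identity (16 of 16), hedgehog (6 of 6) and ribosome biogenesis (18 of 18) genes were all on the proestrus side in estrus, whereas cholesterol synthesis genes were not (0 of 11), nor were most of oxidative phosphorylation (2 of 11) and of the lower retinoid genes (1 of 6).

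**Figure D5:**
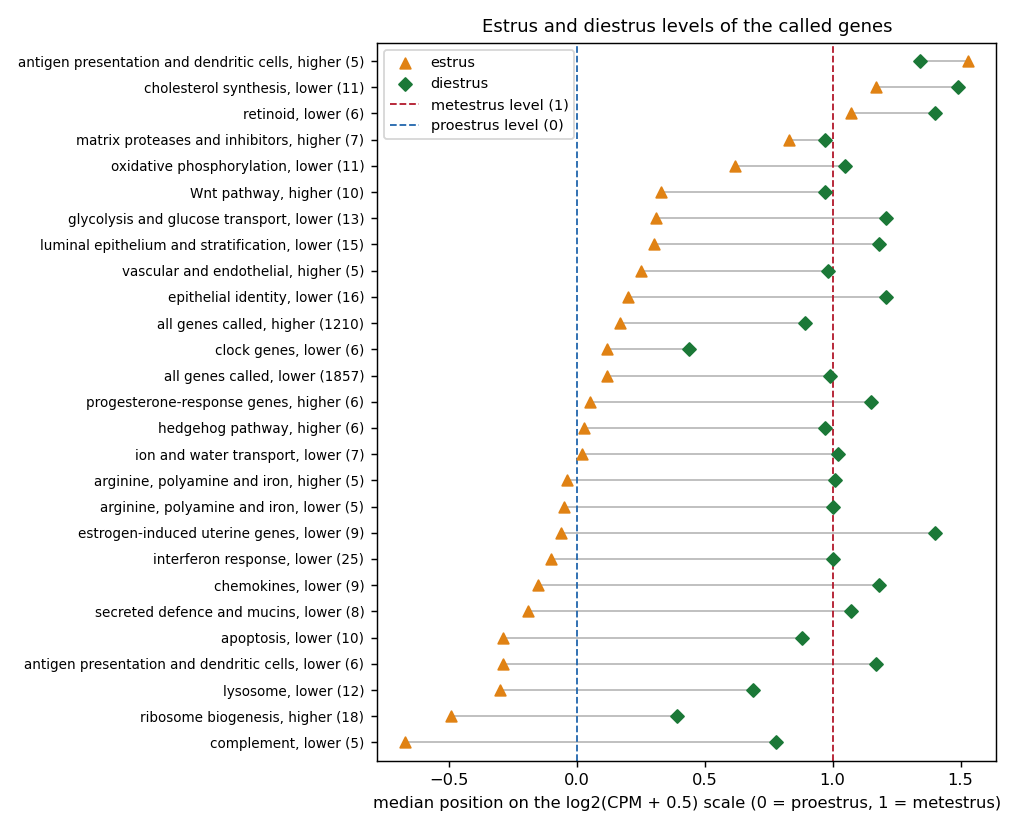
Median position of estrus (triangles) and diestrus (diamonds) on the log2(CPM + 0.5) scale for the called genes of each list with at least 5 of them, with proestrus at 0 and metestrus at 1; the number of genes stands in parentheses. Cholesterol synthesis is past 1 in estrus (1.17), most lower lists are near 0 in estrus and near 1 in diestrus, and ribosome biogenesis is below 0 in estrus (-0.49) and at 0.39 in diestrus.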

How the data were processed

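The files hold 1 table of whole-number read counts per gene that the authors deposited for all 8 libraries, not normalised, and every column was mapped to a library by its name. Per the submitters' processing notes, STAR, featureCounts of Subread and the mouse build GRCm38 (mm10) were used; for versions, settings and the strand mode of counting nothing is stated in the labels, so reads of a gene and an overlapping or antisense partner cannot be told apart. The library totals are those given with the results; depth sets a floor of 3 counts, and intervals and floors cover counting error only.

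Genes were kept with the filterByExpr rule of edgeR 4.0.16 (R 4.3.3), scaled by TMM and fitted by quasi-likelihood over the 4 stages, with Benjamini-Hochberg adjustment over all genes tested. CPM values use the TMM-scaled library sizes. Alternatives were DESeq2 1.42.0, its size factors in edgeR, limma-voom (limma 3.58.1), other filters and minimum folds, fewer stages, a replicate block and fits with 1 library fewer. The fitting was tested on simulated data. The genes named are mainly the 15 largest rises and 15 largest falls among called genes of at least 5 CPM in the higher stage and without overlap, the 10 smallest p-values, up to 5 members of each list by p and the most abundant member not called; further list members were added for their roles, after values were seen. A few genes chosen this way are not reported here. Gene names and coordinates are those of GENCODE, and promoters those of RefSeq. The members and lists were chosen with earlier results of these data known.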

Additional observations from a re-analysis of the deposited data

How the results depend on the processing

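Counts of genes called higher and lower moved by less than 1.5 times with the size factors of DESeq2 in edgeR, DESeq2, limma-voom and both other filters, as did the count of called list members. A minimum fold of 2 left 42 higher and 243 lower genes and 58 of the 301 called list members. A fit of only the 4 libraries called 2092 genes higher and 477 list members, and a fit of the 3 stages without diestrus 2365 and 457. Leaving out 1 library at a time gave 2 to 2343 genes higher, 14 to 2658 lower and 7 to 457 list members; a stage then has 1 library, which is assumed to vary like the other stages. No gene called in the contrast was called with the opposite sign under an alternative. The replicate block gave 1364 higher and 1978 lower genes. Between libraries with the same number, the correlation of deviations from the stage means was -0.0232 over 18114 genes for proestrus and metestrus. It ranged from -0.0926 to 0.145 over the 6 pairs of stages. With 2 libraries a stage, these values cannot decide whether the numbers pair the libraries.

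Signs turned for 9 genes that did not pass. Under limma-voom the Cxcl10 log2 fold change was 0.039. With 1 library left out at a time, the Cxcl10 log2 fold change ranged from -1.51 to 1.81, the Adipoq log2 fold change from -7.52 to 8.69, the Ccnb1 log2 fold change from -0.43 to 0.87 and the Acta2 log2 fold change from -0.27 to 0.084. The Esr1 log2 fold change ranged from -0.0068 to 0.077, the Ifnar1 log2 fold change from -0.11 to 0.088 and the Pecam1 log2 fold change from -0.063 to 0.28. The H2-Eb1 log2 fold change ranged from -2.17 to 3.93 and the Plin1 log2 fold change from -5.98 to 7.23. The cause was not tested.

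With 2 libraries a stage, a p that misses the threshold does not show that levels were equal. Genes with 3 or fewer counts in a stage have no usable fitted fold change.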

Other observations

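Some genes outside the lists, picked after their values were seen, differed as strongly as the lists' members. Egln3, a prolyl hydroxylase that is itself induced by low oxygen, had 11.7 and 11.2 CPM in metestrus, against 253 and 169 CPM in proestrus (-4.21 ± 0.30, edgeR adjusted p = 0.00295). Ankrd37, another gene known to be induced by low oxygen, had 0.625 and 0.77 CPM in metestrus, against 17.1 and 10.1 CPM in proestrus (-4.27 ± 0.42, edgeR adjusted p = 0.00386). Car9, a carbonic anhydrase of the same kind, had 1.79 and 2.05 CPM in metestrus, against 27.6 and 11.8 CPM in proestrus (-3.35 ± 0.59, edgeR adjusted p = 0.0145). In all 3 genes both metestrus libraries were far below both proestrus libraries. Genes of the interleukin 36 family, cytokines of surface epithelium, were lower too. Il1f9 had 0.179 and 0.171 CPM in metestrus, against 19.3 and 4.12 CPM in proestrus (-6.02 ± 1.12, edgeR adjusted p = 0.0173). Il1f6 had 2.05 and 1.2 CPM in metestrus, against 35.8 and 18 CPM in proestrus (-4.05 ± 0.76, edgeR adjusted p = 0.0181). Il1f8 changed by -3.19 ± 0.46 and Csf3, the growth factor of neutrophils, by -5.13 ± 0.77. These are values with no test of an explanation, and the epithelial markers moved in the same direction (16 of 20 lower).

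Some transcripts were uneven within a stage in both stages. The class II chain H2-Eb1 had 4.51 and 89.8 CPM in metestrus, against 38.7 and 3.08 CPM in proestrus and did not pass (edgeR adjusted p = 0.673), while its partner Cd74 was even within the stages. The fat cell gene Plin1 had 0 and 1.75 CPM in metestrus, against 0.769 and 0 CPM in proestrus. Together with Adipoq it was found in metestrus library 2 and proestrus library 1 and at 0 in the other 2 libraries. The 150 immunoglobulin variable genes tested summed, with the untested ones, to 541 and 785.9 CPM in metestrus, against 228.1 and 394.6 CPM in proestrus.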
